A study of Mus musculus with 8 samples.

Results

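Lipid droplets are stores of triglyceride and sterol ester inside cells, each bounded by a phospholipid monolayer that carries its own set of proteins. Described here are 10 genes of this system, chosen by name out of the 24411 in the deposited table: the perilipin genes Plin2, Plin3, Plin4 and Plin5, which encode droplet coat proteins, the CIDE genes Cideb and Cidec, the patatin-like phospholipase genes Pnpla2 and Pnpla3, and G0s2 and Hilpda, which encode inhibitors of the lipase made by Pnpla2. All 10 were in the table and all 10 passed the filter on low counts.

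The libraries came from hepatocytes that were taken from the livers of WT mice (4 libraries) or of mice in which Taf2 had been conditionally knocked out in hepatocytes (4 libraries, labelled TAF2 KO), and that had spent 2 days in culture. Taf2 encodes a subunit of TFIID, the factor that recognises core promoters ahead of RNA polymerase II. The sources used here do not give the Cre driver, the strain, the animals' age and sex or any treatment. Nor do the labels say whether the libraries of a genotype came from separate animals or cultures, so the p-values measure the spread between these libraries, which may be technical.

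In hepatocytes, droplets take up surplus fatty acids as triglyceride and release them again through lipolysis. The product of Pnpla2 (adipose triglyceride lipase, ATGL) removes the first fatty acid, the coactivator encoded by Abhd5 stimulates it, and the products of G0s2 and Hilpda bind and inhibit it. Perilipins shield the droplet surface from lipases, and CIDE proteins act in lipid transfer between droplets and, in the liver, in the lipid loading of very-low-density lipoprotein.

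Total estimated counts ran from 18947060 to 23933585 per library. Taf2 fell from 44.04 ± 2.05 to 13.9 ± 1.26 CPM (counts normalised to TMM-scaled library size; mean ± SD, n = 4 each), and no library went against its label. Hepatocyte markers were abundant in both genotypes, with a summed level of 69848 to 74915 CPM in the WT libraries and 85351 to 92422 CPM in the knockout libraries. Of the 12 markers 7 were higher and 3 (Apob, Cps1 and Apoa1) lower in the knockout, and the sum was mostly Alb, the albumin gene, which rose from 38035 ± 1777 to 55183 ± 3032 CPM. Markers of other liver cells were higher in the knockout: 14 of 15 tested macrophage markers (summed 186 to 214 CPM in WT and 369 to 397 CPM in knockout libraries), 12 of 13 endothelial markers (61.1 to 68.05 and 155 to 161 CPM) and 11 of 12 stellate cell markers (66.9 to 71.7 and 147 to 162 CPM). Of 6 tested cholangiocyte markers 2 were higher and 4 lower. By the same test, described below, 30.2% of all 12122 genes were higher and 31.2% lower, which is the background for the marker counts. Of 10 adipocyte markers 4 were tested, with Fabp4 (41.8 ± 3.47 to 54.1 ± 4.63 CPM) and Cidea higher and Pparg and Lipe lower, and the list summed to 61.1 to 69.8 CPM in WT and 69.6 to 79.4 CPM in knockout libraries. Among those not tested, Adipoq and Retn had 0 counts in all 8 libraries, and Plin1, the adipocyte perilipin, had 1 count over the WT and 2 over the knockout libraries. The part that these other cells play in the differences below was not tested, and in such bulk samples fewer cells of a type and less RNA per cell cannot be told apart.

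In the knockout libraries Hilpda rose 4.17-fold and Plin3 1.15-fold, while Plin4, Cideb, Cidec, Pnpla3 and G0s2 fell to between 40.7% and 73.1% of their WT level. Plin2, Plin5 and Pnpla2 did not pass the test. The count of called members, 7 of 10, stands beside 61.4% of all 12122 genes tested, so it is near the background of this comparison. The genotypes did not overlap for the same 7 members, and for 54.7% of all genes. By direction, 2 of 10 were higher (30.2% of all genes) and 5 of 10 lower (31.2% of all genes), and the median log2 fold change of the 10 was -0.22 against -0.0035 over all genes. A gene was called at an adjusted p under 0.05 from edgeR's quasi-likelihood test, with the adjustment made over all genes. Fold changes are knockout against WT on the log2 scale, each with a standard error (SE) taken from that test, and intervals are at the 95% level.

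**Figure D1:**
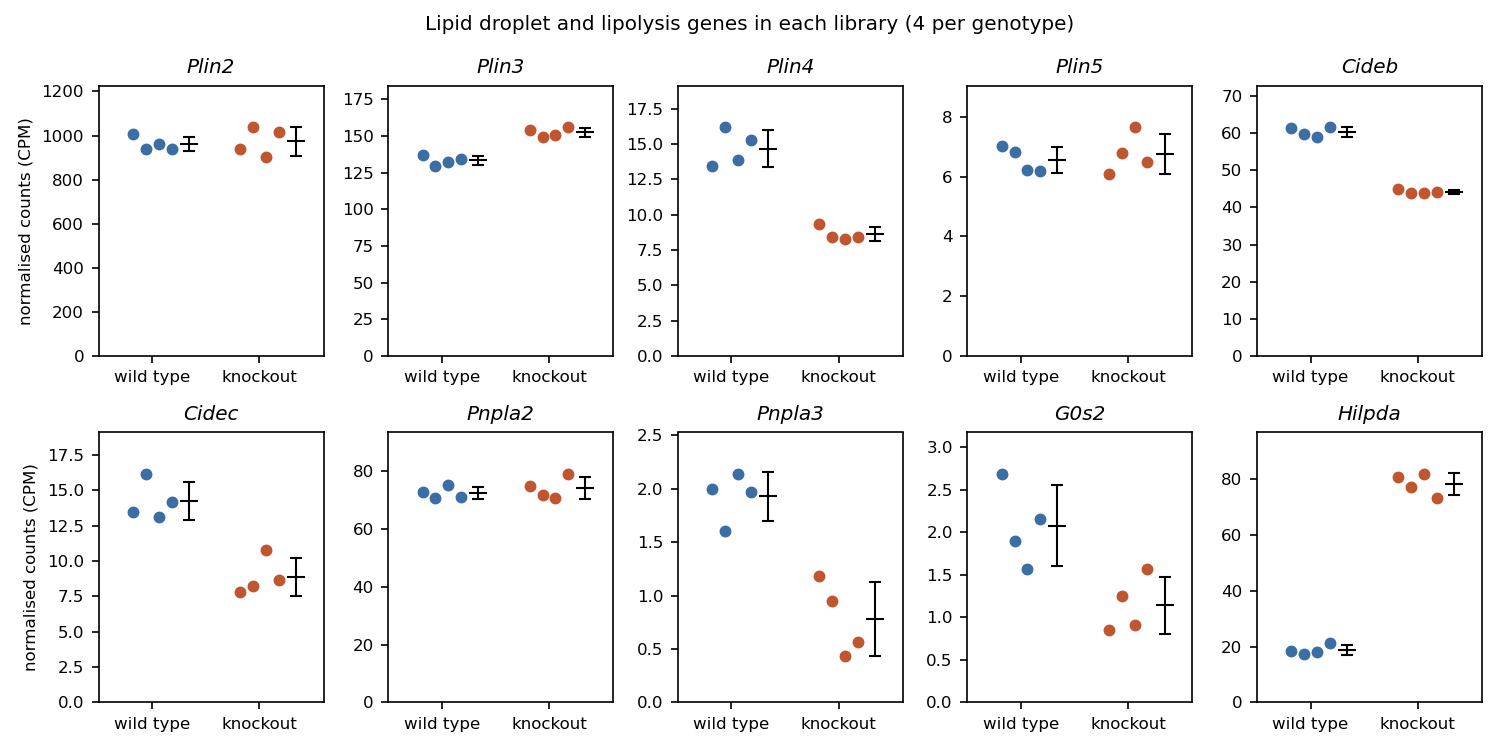
Normalised counts (CPM) of each of the 10 genes in the 8 libraries, wild type in blue and knockout in orange, with the mean and SD of 4 libraries as a black bar beside the points; every axis starts at 0. The genotypes do not overlap for Plin3, Plin4, Cideb, Cidec, Pnpla3, G0s2 and Hilpda, and overlap for Plin2, Plin5 and Pnpla2.

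Promoter sequence from RefSeq (build GRCm38.p6, 250 bases before to 50 after an annotated start) was matched for all 10 genes, in 13 windows. The first stretch shown lies directly before the upstream annotated start of Hilpda, the member with the greatest fold change. The others are 30 bases each around a short match, chosen because Plin4 and Plin5 are neighbours with the match at a similar place, because ACGTG is the core that hypoxia-inducible factors recognise and Hilpda is a known hypoxia-responsive gene, and because Plin2 is the most abundant member. Capitals mark the match named on each line; the first stretch holds none of the motifs searched. All are written 5′ to 3′ on the strand of the gene.
Hilpda before the start, chr6:29272338-29272487, plus strand: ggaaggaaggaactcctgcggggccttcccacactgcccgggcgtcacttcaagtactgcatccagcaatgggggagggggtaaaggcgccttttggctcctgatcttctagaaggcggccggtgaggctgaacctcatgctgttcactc
Hilpda around ACGTG, chr6:29272571-29272600, plus strand: gatggccagcggACGTGccccagggcgagc
Plin4 around TATAA, chr17:56109797-56109826, minus strand: ctccccagacccTATAAggcttggggattg
Plin5 around TATAA, chr17:56117558-56117587, minus strand: acccagacctgcTATAAggacggagggctg
Plin2 around CACGTG, chr4:86670046-86670075, minus strand: cagctgggctatCACGTGgctcggaggctt

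Searched on both strands were the TATA core (TATAA), the hypoxia-response cores (ACGTG, and its variant form GCGTG), the E-box (CACGTG, which always holds ACGTG as well), the CCAAT box (CCAAT) and the nuclear receptor site (AGGTCA). The TATA core occurred in 24.9% of all 32851 promoter windows of this length and in windows of 4 of the 10 genes. It began 32 bases before the annotated start of Plin4 and 27 bases before that of Plin5, and much farther upstream, at 172 and 204 bases, in Cideb and Hilpda. ACGTG was in 19.6% of all windows and, among the 10 genes, in those of Plin2 and Hilpda. In Hilpda it began 43 bases before the downstream of its 2 annotated starts, and in Plin2 it was part of CACGTG (7.15% of all windows), which began 4 bases before the start. GCGTG was found for 7 members (32.4% of all windows), CCAAT for 5 (37.4%) and AGGTCA for 2 (16.3%). A gene was counted for a match in any of its windows, and Plin5, Cidec and Hilpda had 2 each. The shares are of single windows, so the units differ. The window of Pnpla2 held none of the 6 motifs. These matches describe the letters of the windows and are not evidence of binding.

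Among the coat proteins, Plin2 dominated. Its protein is the perilipin most characteristic of hepatocyte droplets. Plin2 (chromosome 4, 86648386 to 86670060, minus strand) stood at 1005, 941, 962 and 938 CPM in the WT libraries and at 939, 1038, 900.5 and 1015 CPM in the knockout libraries. The genotypes overlapped, and the knockout libraries ran both lower and higher than the WT libraries. The log2 fold change was 0.017 (SE 0.043; edgeR adjusted p = 0.746), and its interval, from 0.952-fold to 1.08-fold, bounds how far the level may have moved. Plin2 took between 74.1% and 75.4% of all counts of the 10 genes in the WT libraries and between 70.6% and 73.8% in the knockout libraries.

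Plin3, whose product moves between cytosol and nascent droplets, was the only perilipin called higher. It lies on chromosome 17 (56277476 to 56292873, minus strand). It measured 137, 129.7, 132 and 134 CPM in the WT libraries and 154, 149, 151 and 156 CPM in the knockout libraries. Every knockout library was above every WT library, although the difference was small, with a log2 fold change of 0.20 (SE 0.035; edgeR adjusted p = 6.66e-05).

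Plin4, known best from adipocytes and muscle, fell. It lies on chromosome 17 from 56100591 to 56109803 on the minus strand. It measured 13.4, 16.2, 13.8 and 15.3 CPM in the WT libraries and 9.35, 8.44, 8.30 and 8.38 CPM in the knockout libraries. All knockout values were below all WT values (log2 fold change -0.76, SE 0.078; edgeR adjusted p = 4.84e-08). Plin5 (56111601 to 56117596, minus strand), whose product tethers droplets to mitochondria in oxidative tissues, starts 7.79 kb from the start of Plin4, with 1.80 kb between the genes. It measured 7.03, 6.80, 6.21 and 6.18 CPM in the WT libraries and 6.09, 6.79, 7.65 and 6.49 CPM in the knockout libraries. These ranges overlap, and the log2 fold change of 0.041 (SE 0.094; edgeR adjusted p = 0.726) had an interval from 0.898-fold to 1.178-fold. Within libraries there were 1.91 to 2.47 counts of Plin4 per count of Plin5 in WT and 1.08 to 1.53 in the knockout. This pair was picked after the values were seen and was not tested. The TATAA match shown above sits at a similar distance from the RefSeq starts of Plin4 (56109782) and Plin5 (56117548). The coordinates in this paragraph are from GENCODE, whose starts differ. Against the GENCODE starts, the match lies before the start of Plin4 but inside Plin5, so the similar distance holds for the RefSeq starts only. Plin3 lies a further 160 kb away, beyond 7 other protein-coding genes.

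Summed per kilobase of transcript, so that genes of different length can be compared, Plin2 made up 92.3% ± 0.157 of the perilipin transcripts in WT and 91.7% ± 0.541 in the knockout (SD, n = 4). Plin3 made up 6.63% ± 0.131 and 7.47% ± 0.468. Plin4 went from 0.463% ± 0.053 to 0.267% ± 0.025 and Plin5 from 0.598% ± 0.031 to 0.608% ± 0.085.

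Both CIDE genes fell. Cideb, the form typical of hepatocytes, lies on chromosome 14 (55754050 to 55758458, minus strand). It measured 61.3, 59.6, 58.9 and 61.6 CPM in the WT libraries and 44.9, 43.9, 43.7 and 44.05 CPM in the knockout libraries. Each genotype was tight and the ranges were well apart (log2 fold change -0.45, SE 0.037; edgeR adjusted p = 1.79e-09). Of the transcript of Cideb listed in the table, 71.0% lies over exons of Nop9 on the opposite strand. The strand setting of the counting is not given. Estimated counts of both genes were whole numbers in all 8 libraries, with no sign of reads shared between them. Whether overlapping reads went to the right gene was not tested. Nop9 itself was at 57.7 ± 1.45 CPM in WT libraries and 58.0 ± 2.91 CPM in knockout libraries (adjusted p = 0.869 by edgeR). Cidec (chromosome 6, 113424634 to 113435760, minus strand), known for droplet fusion in adipocytes and in fatty liver, measured 13.4, 16.2, 13.2 and 14.2 CPM in WT libraries. In the knockout libraries it measured 7.79, 8.24, 10.8 and 8.67 CPM. The highest knockout library stayed below the lowest WT library (log2 fold change -0.68, SE 0.095; edgeR adjusted p = 3.36e-06). Cidea, the remaining CIDE gene, which brown fat expresses and which the fixed list of droplet formation genes held, went the other way, from 1.08 ± 0.216 to 4.204 ± 0.644 CPM (log2 fold change 1.95, SE 0.17; edgeR adjusted p = 4.75e-09). It rested on 91 counts over the WT and 370 over the knockout libraries.

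Of the lipases, Pnpla2 did not pass. It lies on chromosome 7 (141455198 to 141460743, plus strand). It measured 72.9, 70.9, 75.3 and 71.1 CPM in the WT libraries and 74.99, 71.7, 70.8 and 79.2 CPM in the knockout libraries. The ranges overlapped, with a log2 fold change of 0.032 (SE 0.039; edgeR adjusted p = 0.5003) and an interval from 0.966-fold to 1.08-fold. Its coactivator gene Abhd5 was at 70.4 ± 3.30 CPM in WT libraries and 70.3 ± 3.39 CPM in knockout libraries (adjusted p = 0.954 by edgeR).

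Pnpla3, the paralogue of Pnpla2 whose product sits on droplets and can bind the Abhd5 protein, was among the least abundant members. It lies on chromosome 15 from 84167837 to 84187236 on the plus strand. Its counts were 46, 33, 41 and 42 in the WT libraries and 28, 19, 10 and 12 in the knockout libraries, or 2.00, 1.604, 2.14 and 1.97 CPM against 1.19, 0.949, 0.432 and 0.568 CPM. Each knockout library was below each WT library, and the knockout libraries differed among themselves by more than the WT libraries did. The log2 fold change of -1.29 (SE 0.24; edgeR adjusted p = 0.000116) had a wide interval, from 0.288-fold to 0.581-fold, as such counts allow. Hilpda and Pnpla3 were the members that changed by at least 1 on the log2 scale. Of all genes tested, 9.5% were called at that size, with 6.9% of all genes higher and 2.6% lower.

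The inhibitors of ATGL moved in opposite directions. Hilpda, whose product is made under hypoxia and in response to fatty acids, lies on chromosome 6 from 29272488 to 29275446 on the plus strand. It measured 18.5, 17.4, 17.96 and 21.2 CPM in the WT libraries and 80.8, 77.04, 81.9 and 73.3 CPM in the knockout libraries. All knockout libraries were far above all WT libraries. The log2 fold change was 2.06 (SE 0.055; edgeR adjusted p = 1.13e-16), with an interval from 3.85-fold to 4.51-fold, and in size it exceeded that of 97.0% of the genes tested. G0s2 (chromosome 1, 193272161 to 193273217, minus strand) was low, at 62, 39, 30 and 46 counts in the WT libraries and 20, 25, 21 and 33 in the knockout libraries. In CPM these are 2.69, 1.90, 1.57 and 2.16 in WT and 0.846, 1.249, 0.908 and 1.56 in the knockout. The ranges nearly met, since the highest knockout library, at 1.563 CPM, was just under the lowest WT library, at 1.566 CPM. The log2 fold change was -0.89 (SE 0.22; edgeR adjusted p = 0.00149). G0s2 lies within an intron of Lamb3 on the opposite strand. Their exons do not overlap, and Lamb3 fell from 10.1 ± 0.635 to 2.97 ± 0.099 CPM (edgeR adjusted p = 2.52e-12).

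**Figure D2:**
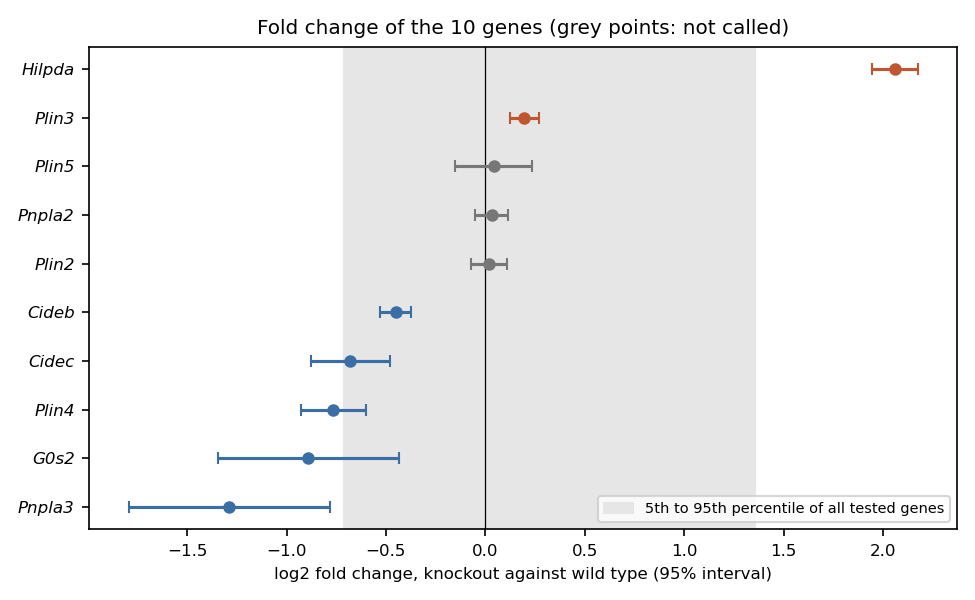
Log2 fold change of each gene, knockout against wild type, with its 95% interval (orange called higher, blue called lower, grey not called); the grey band runs from -0.71 to 1.36, the 5th to 95th percentile of all tested genes. Hilpda lies above the band, and Plin4, G0s2 and Pnpla3 have estimates below it.

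Levels per kilobase of transcript gave the order of the members within each genotype. In WT it ran from Plin2 (509 ± 16.3 CPM per kilobase) through Cideb (49.8 ± 1.08), Plin3 (36.6 ± 0.829), Pnpla2 (33.6 ± 0.952), Hilpda (22.9 ± 2.05), Cidec (8.32 ± 0.798), Plin5 (3.30 ± 0.214), Plin4 (2.55 ± 0.223) and G0s2 (2.38 ± 0.545) to Pnpla3 (1.47 ± 0.174). Neighbours in this order were apart in every WT library except Plin4 and G0s2. In the knockout Hilpda, at 95.4 ± 4.77 CPM per kilobase, came after Plin2 (515 ± 33.98) and ahead of Plin3 (41.9 ± 0.841), Cideb (36.4 ± 0.408) and Pnpla2 (34.4 ± 1.75). There the neighbours that overlapped were Cideb and Pnpla2, and again Plin4 and G0s2.

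Ratios of genes within a library do not depend on how libraries are scaled, and 6 were compared with exact two-sided permutation tests. The smallest p that 4 against 4 libraries allow is 0.0286, and 4 ratios reached it without overlap. Benjamini-Hochberg adjustment over the 6 in this family then gave 0.0429 for each of these 4. That adjusted value depends on how many of the 6 ratios reached the smallest p, so each pass rests on the others. There were 3.35 to 4.19 counts of Pnpla2 per count of Hilpda in WT libraries and 0.865 to 1.08 in knockout libraries, a 4.09-fold fall computed from the mean log2 ratios. Set against G0s2 the ratio went the other way, with 27.1 to 48.1 counts of Pnpla2 per count of G0s2 in WT and 50.6 to 88.6 in the knockout. The lipase gene and its inhibitor genes were thus in different proportions in the genotypes, in a direction that depends on the inhibitor. Pnpla2 per Pnpla3 went from a range of 35.2 to 44.2 to a range of 63.3 to 164. Plin3 per Plin2 rose slightly, from 0.136 to 0.143 in WT to 0.144 to 0.168 in the knockout. Neither Plin5 per Plin2 (exact permutation p = 0.943, adjusted p = 0.943) nor Cidec per Cideb (p = 0.114, adjusted p = 0.137) passed, and both overlapped. Only the ratio of Pnpla2 to Hilpda kept its exact permutation p at 0.0286 whichever single library was left out. The p of Pnpla2 per G0s2 became 0.0571 without WT replicate 1, 2 or 4 or knockout replicate 1, 2 or 3, and that of Pnpla2 per Pnpla3 and of Plin3 per Plin2 became 0.0571 without any 1 of the 4 WT libraries (exact permutation tests). With a library left out the exact permutation p moves in steps of 0.0286, so 0.0571 is the next value above the smallest. The genotypes stayed without overlap for these ratios in each case. Cidec per Cideb passed without knockout replicate 3 (exact permutation p = 0.0286, unadjusted).

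**Figure D3:**
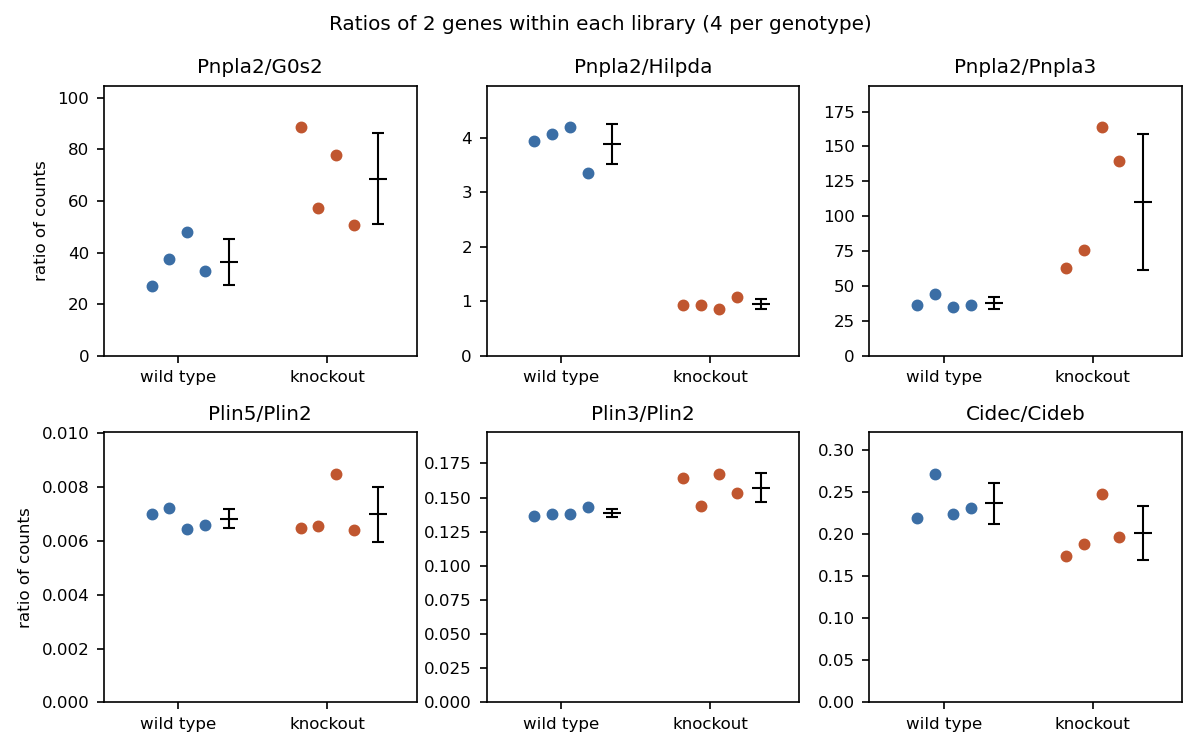
Ratio of the counts of 2 genes in each library (points), with the mean and SD of 4 libraries beside them, wild type in blue and knockout in orange; every axis starts at 0. Pnpla2 per Hilpda is lower in all 4 knockout libraries and Pnpla2 per G0s2 and per Pnpla3 higher, while Plin5 per Plin2 and Cidec per Cideb overlap.

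Other genes of the pathway were taken from lists compiled by function. Of 17 tested genes of droplet formation and coat, 3 were higher and 9 lower, with a median log2 fold change of -0.14. Over all genes tested 30.2% were higher and 31.2% lower, so that the 12 called genes of 17 stand beside 61.4% of all genes and are near that background. Fitm1, whose product partitions fat into forming droplets, fell from 3.10 ± 0.198 to 0.794 ± 0.114 CPM, and the droplet dehydrogenase gene Hsd17b11 from 60.8 ± 2.09 to 38.6 ± 3.34 CPM. Mettl7b, which encodes a droplet-associated methyltransferase, fell from 59.3 ± 1.29 to 45.4 ± 0.646 CPM. Beside Cidea, the genes called higher were Aifm2 (log2 fold change 0.21, SE 0.048) and Acsl3 (0.16, SE 0.052), an acyl-CoA synthetase gene of nascent droplets, part of whose reads was shared with other genes in 7 libraries. The most abundant gene of the list, Hsd17b13, a liver droplet protein gene, was at 357 ± 15.9 CPM in WT libraries and 344 ± 15.8 CPM in knockout libraries (adjusted p = 0.257 by edgeR). Plin1 was not tested, at the few counts given above.

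Lipid hydrolases apart from the patatin-like members above were called higher in 9 and lower in 6 of 17 tested cases, beside 30.2% and 31.2% of all genes, with a median log2 fold change of 0.11. Ces1d, which encodes a triglyceride hydrolase of the endoplasmic reticulum, rose from 27.3 ± 1.77 to 178 ± 16.03 CPM (log2 fold change 2.71, SE 0.060; edgeR adjusted p = 4.37e-18), more than any other gene of the pathway lists. Ces1g rose from 14.7 ± 0.739 to 30.1 ± 2.44 CPM and Ces3b from 68.4 ± 4.35 to 105 ± 5.02 CPM. Carboxylesterase genes are close copies of each other, and part of the reads of Ces3b in 8 libraries and of Ces1g in 1 was shared. The highest level of the list was that of Ces3a, at 525 ± 23.5 CPM in WT and 608 ± 23.9 CPM in the knockout, with shared reads in 8 libraries. Pnpla7, which encodes a lysophospholipase, fell from 49.98 ± 1.15 to 33.8 ± 0.803 CPM, Lipa, the lysosomal acid lipase gene, from 97.4 ± 2.93 to 66.2 ± 4.42 CPM, and the monoglyceride lipase gene Mgll from 16.5 ± 0.641 to 12.5 ± 0.763 CPM.

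Enzymes that make triglyceride and sterol ester were called higher in 3 and lower in 8 of 14 tested cases, beside 30.2% and 31.2% of all genes, with a median log2 fold change of -0.17. Lpin2, a phosphatidate phosphatase gene and the most abundant of the list, rose from 293 ± 11.6 to 426 ± 8.66 CPM, and Lpin1 from 50.9 ± 2.95 to 71.2 ± 0.802 CPM. Soat1, the sterol esterifying enzyme gene that macrophages use, rose from 0.373 ± 0.159 to 1.98 ± 0.177 CPM on 32 and 175 counts. Macrophage, endothelial and stellate cell markers were also higher in the knockout libraries. A link of Soat1 to any of these cells was not tested. The acyltransferase genes Agpat3, Agpat2 and Agpat6 fell by 0.38 (SE 0.037), by 0.34 (SE 0.040) and by 0.20 (SE 0.034) on the log2 scale.

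Transcription factors and coactivators known to act on droplet genes were called higher in 4 and lower in 8 of 17 cases, beside 30.2% and 31.2% of all genes, with a median log2 fold change of -0.088. The 12 called are near the 61.4% of all genes called. Hif1a, which encodes an oxygen-regulated factor known to induce Hilpda, fell from 287 ± 14.3 to 137 ± 12.1 CPM (log2 fold change -1.06, SE 0.052; edgeR adjusted p = 6.17e-13). Its transcript was thus lower in the libraries in which Hilpda was higher; transcript counts say nothing of the level of the protein. Nr1h3, the LXRα gene, fell from 48.6 ± 2.01 to 29.0 ± 1.43 CPM. Pparg, the gene of a nuclear receptor, fell from 15.2 ± 0.474 to 10.9 ± 0.838 CPM. Cebpb, Cebpa and Ppard rose by 0.67 (SE 0.045), by 0.49 (SE 0.062) and by 0.45 (SE 0.065) on the log2 scale. The most abundant member, Hnf4a, was at 356 ± 8.02 CPM in WT libraries and 366 ± 1.86 CPM in knockout libraries (adjusted p = 0.268 by edgeR). Without WT replicate 2, or without knockout replicate 3, 5 genes of this list were called lower in place of 8.

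**Figure D4:**
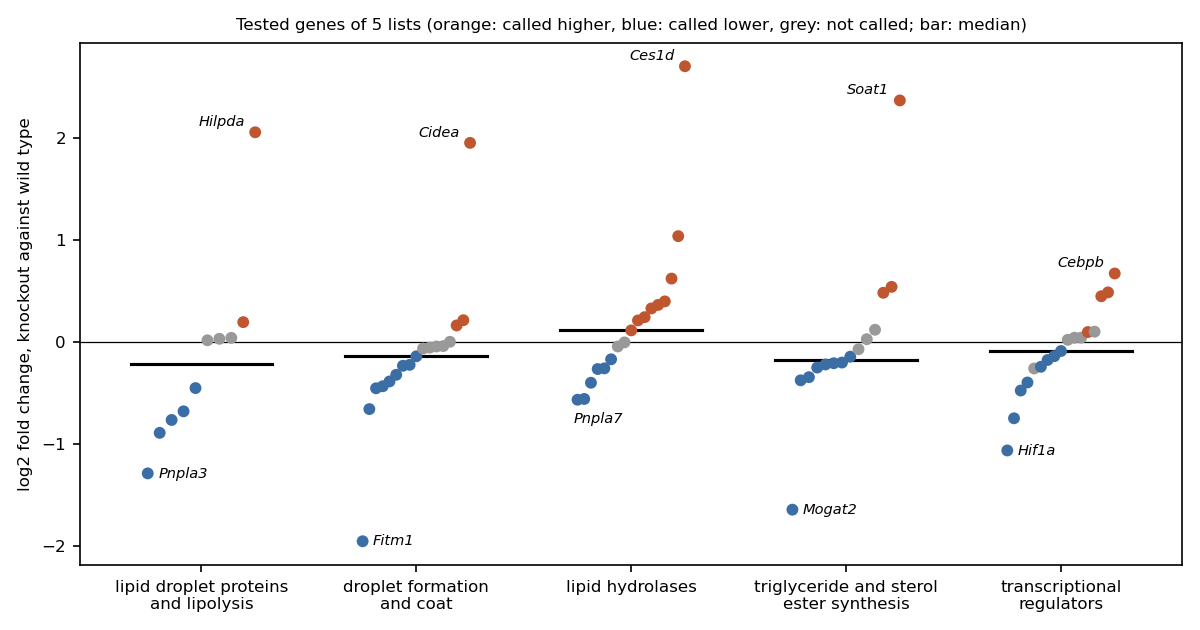
Log2 fold change, knockout against wild type, of each tested gene in 5 lists (points ordered by value; orange called higher, blue called lower, grey not called), with the median of each list as a bar. Medians lie between -0.22 and 0.11, and Hilpda, Cidea, Ces1d and Soat1 stand above the other genes of their lists.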

How the data were processed

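RNA-seq libraries of 4 WT and 4 TAF2 KO hepatocyte samples were used. The authors deposited estimated counts per gene, made with RSEM on mm10, as the submitters' processing notes state; the sources used here do not give the aligner or the strand setting. Another 8 columns could be tied to no sample and were left out. Values of all 10 members were whole numbers. Estimated counts were rounded, filtered with filterByExpr (minimum count 10, minimum total 15), scaled by TMM and tested with edgeR 4.0.16 (quasi-likelihood, genotype as the only term, Benjamini-Hochberg adjustment over 12122 genes, threshold 0.05) in R 4.3.3, with limma 3.58.1 (voom) and DESeq2 1.42.0 as alternatives. Libraries of the same genotype differed beyond sampling noise (chi-square per degree of freedom 3.18 to 8.64), so each was counted as 1 replicate. Coordinates, transcript lengths and overlaps are from GENCODE M21 (GRCm38, the same build as mm10), promoters from RefSeq.

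Members and lists were chosen with earlier results of these data known. Named genes were the 10 members, Taf2 and, per pathway list, in each direction up to 3 called genes of smallest adjusted p, plus the most abundant gene; Abhd5, Nop9, Lamb3, Retn, Apob, Cps1, Apoa1, Lipe and the ratio of Plin4 to Plin5 were added after values were seen. Marker lists are given as counts and, except for cholangiocytes, as sums. Of their most abundant genes, which the rule also named, only Alb and Fabp4 are given. Values of Cd68, Reln and Lrat are not given. List entries missing from the table were matched through RefSeq synonyms (Ldah, Trf). On simulated data for this comparison (12016 genes) the fit recovered 71.7% of genes changed 1.25-fold, 88.9% changed 1.5-fold and 98.4% changed 2-fold, with 11 false calls; a share of changed genes like that of the real data was not simulated.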

Additional observations from a re-analysis of the deposited data

Results flagged for a closer look

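Of 32 groups of 4 values checked (the 10 genes and 6 ratios in each genotype), 3 held a library set apart from the rest by more than Dixon's critical gap of 0.829 of the range; chance alone flags about 1 group in 20. Plin4 was at 9.35 CPM in knockout replicate 1, against 8.30 to 8.44 CPM in the other knockout libraries. Pnpla2 per Pnpla3 was 44.2 in WT replicate 2, against 35.2 to 36.5 in the other WT libraries. Plin5 per Plin2 was 0.00850 in knockout replicate 3, against 0.00640 to 0.00655 in the other knockout libraries.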

How the results depend on the processing

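The calls of Plin3, Plin4, Cideb, Cidec, Pnpla3, G0s2 and Hilpda kept their direction and stayed past the threshold in all 17 alternatives (scaling, test, filter, thinning, replicate block, each library left out); the highest adjusted p was 0.0108, for G0s2. Plin2, Plin5 and Pnpla2 passed in none. The sign of Plin2 turned with scaling by library totals (-0.010; adjusted p = 0.850) and, over the libraries left out, its log2 fold change ran from -0.0093 to 0.057; that of Plin5 ran from -0.023 to 0.097. Counts of genes called lower among the transcriptional regulators ran from 5 to 8 with a library left out. No scaling moved the median of all genes by more than 0.1 on the log2 scale. With all genes, 6890 to 8004 were called.

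Same-numbered libraries of the genotypes did not deviate together (correlations -0.069 to 0.011), nor did every library correlate best with its own number, so the numbers were not treated as pairs. With a replicate block on the ratios, where the smallest possible p is 0.125, the log2 differences 0.91 (Pnpla2 per G0s2), -2.03 (Pnpla2 per Hilpda), 1.43 (Pnpla2 per Pnpla3) and 0.18 (Plin3 per Plin2) could not pass. With a library left out these differences ran from 0.78 to 1.06, -2.10 to -1.99, 1.21 to 1.66 and 0.15 to 0.22; those of Plin5 per Plin2 ran from -0.073 to 0.064 and of Cidec per Cideb from -0.34 to -0.17, the latter passing without knockout replicate 3 (exact permutation p = 0.0286). Of the 4 ratios that passed, all but Pnpla2 per Hilpda missed the threshold for some libraries left out. Each miss was by a single step of the exact permutation p, as named with the ratios. Counts as low as 10 (Pnpla3) and 20 (G0s2) limit the precision of those genes.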
